A study of Mus musculus with 6 samples.

Results

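Loss of RelA in thymic epithelium was read from the 2 arrays of CD45-EpCAM+ cells, a sort of thymic cells that carry the epithelial adhesion molecule EpCAM and lack the leukocyte antigen CD45. A gene was included where the scanner software rated it well above background on 1 or both of these arrays. This left 15764 of the 20866 genes named on the array, of which 11843 were above background on both arrays. Both groups were C57BL/6 mice aged 1.5 to 2 weeks and both lacked TNF: the control was a TNFalpha knockout, and the other group a double knockout of TNFalpha and RelA. Each array held RNA pooled from the sorted cells of 10 thymi, so that there was 1 array per genotype and no difference between them has a replicate check. The knockouts are given without a promoter or cell type that would limit them, so that loss of RelA in the epithelial cells and loss in the thymocytes and other cells around them cannot be told apart. The same study hybridised CD4+CD25hi thymocytes, pooled from 5 mice per genotype, and CD45+EpCAM- cells, a stromal fraction with macrophages and dendritic cells from 10 thymi, on 4 further arrays.

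RelA is the p65 subunit of NF-kB, a family of dimeric transcription factors held in the cytoplasm by IkB proteins and released when IkB kinase is activated through receptors of the TNF family. In the canonical branch RelA pairs with p50. In the other branch the kinase NIK, downstream of RANK, CD40 and the lymphotoxin beta receptor, releases RelB paired with p52, and the genes for RelB and p52 are themselves classical targets of RelA. In the thymus these receptors are best known for driving the growth and maturation of medullary epithelial cells. Those cells express genes of many other tissues under the regulators Aire and Fezf2 and so expose developing T cells to self-antigens, while cortical epithelial cells support earlier thymocytes and positive selection.

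The double-knockout array was much the dimmer of the pair. Its 75th percentile of signal was 108 against 370 on the control array, 3.44-fold lower, and 47.2% of probes were well above background against 66.2%. Levels are given as log2 of the processed signal relative to the array's own 75th percentile, so that 0 is that percentile, and a difference is the double-knockout level minus the control level, on the log2 scale. Probes for Agilent's spike-in RNAs, which go into the RNA before labelling, did not share the dimness: 7 of 10 were above background on both arrays, and their signal differed by a median of 0.19, with a range from 0.02 to 0.40. Scaled to them, every gene would lie 1.97 lower in the double knockout than given below, so that "higher" and "lower" here always mean relative to the array's 75th percentile. How much spike-in went with how much RNA is not given in the sources used here. Repeat spots of a probe on the same array had an SD of 0.07 to 0.08, the scanner software's own error of a difference had a median of 0.21, and the SD between different probes of a gene was 0.33 over 2576 genes, none of which measures the spread between animals.

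The arrays carried the markers of the label. The keratin gene Krt5 had a level of 6.44 on the control array and 6.43 on the double-knockout array, and Krt8 had 6.38 and 6.44. Foxn1, the master regulator of thymic epithelium, had 3.23 and 3.39. Epcam, the gene of the sorting antigen, had 2.12 and 1.49, and Aire 1.04 and -0.86, so that all 5 markers were above background on both arrays. Transcripts of other cells were present as well. Ptprc, the CD45 gene, had a level of -0.46 in the control and 0.72 in the double knockout. All 24 genes of the thymocyte list were above background on both arrays, and their summed signal, in units of the 75th percentile, was 108 against 209. In such bulk RNA, fewer cells of a type and less RNA per cell cannot be told apart.

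Among the 11843 genes above background on both arrays, 751 (6.34%) were at least 2-fold lower in the double knockout and 624 (5.27%) at least 2-fold higher. At 4-fold the numbers were 164 lower and 58 higher. The median difference over all these genes was 0.09, and the 5th and 95th percentiles were -1.20 and 1.02. These shares are the background for each gene group below, in which a gene is counted as lower or higher from 2-fold on. The groups were chosen with earlier results of these data known, so that setting them beside these shares is a description and not a test. The share of higher genes lay mostly in the dimmest genes. Cut into 4 equal bins by mean level, the dimmest bin had 13.1% higher and 6.01% lower genes, whereas the brightest had 2.77% higher and 3.82% lower. The second bin had the largest share of lower genes, 9.63%.

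**Figure D1:**
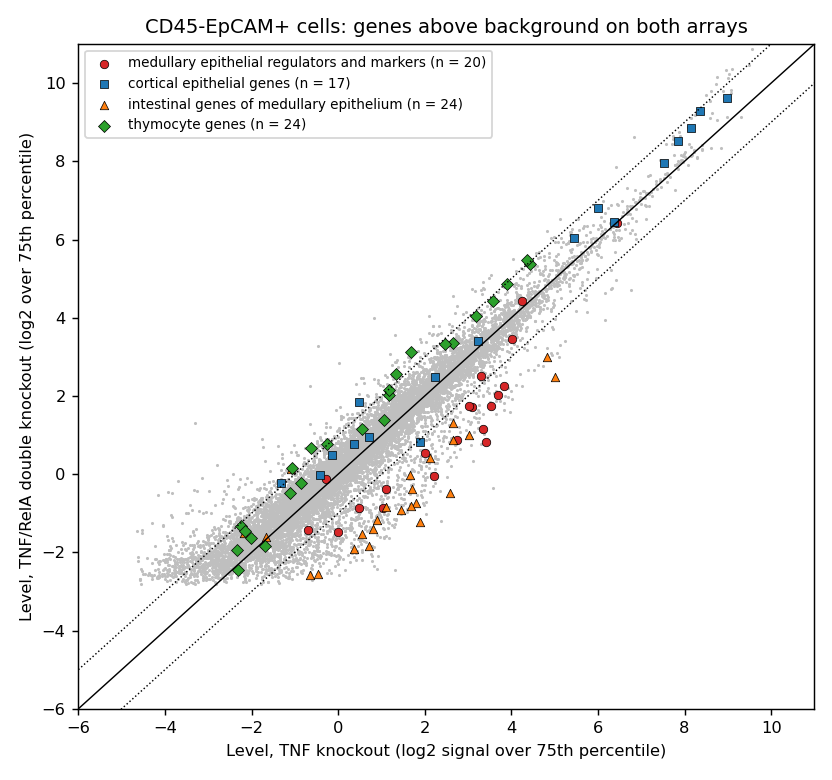
Level of each of the 11843 genes on the control array (x axis) and the double-knockout array (y axis), as log2 signal relative to the array's 75th percentile, with 4 gene lists in colour. Solid and dotted lines mark equal levels and 2-fold differences; medullary and intestinal genes lie mainly below the lower dotted line, with medians of -1.46 and -2.08, and cortical and thymocyte genes mainly above the solid line, with medians of 0.60 and 0.86.

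**Figure D2:**
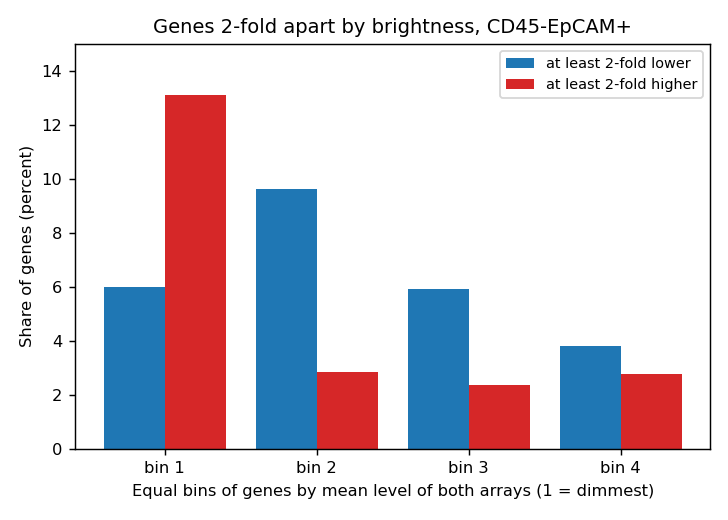
Share of genes at least 2-fold lower or higher in the double knockout (y axis, percent) in each of 4 equal bins of genes by mean level over both arrays (x axis, dimmest first). The dimmest bin has 13.1% higher genes, and the others between 2.37% and 2.84%.

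Rela itself, the deleted gene, had a level of 3.84 in the control and 1.81 in the double knockout, 4.07-fold lower. Tnf, disrupted in both genotypes, had -1.49 on the control array and was not well above background on the other, at least 2.32-fold lower. The sources used here do not say where the single probe of each gene lies with respect to the deleted part, so that these values check the labels only in part.

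Genes of NF-kB proteins were lower in part. Of 10 subunits and IkB inhibitors above background on both arrays, the deleted gene Rela included, 4 were counted as lower and 1 as higher, and the list median was -0.81 against 0.09 for all genes. Without Rela, 3 of 9 were lower and 1 higher, and the median was -0.70. Relb, the subunit of the NIK-driven branch, had a level of 3.66 in the control and 2.51 in the double knockout, and Nfkb2, the gene of its partner p52, 3.59 and 2.58. Nfkbia, which encodes the inhibitor IkB-alpha, had 6.31 and 5.23. Nfkbie, another inhibitor gene, had 2.85 and 1.93, just under 2-fold. Nfkb1, the gene of p50, was on the other side, with 0.49 and 1.07, and so was the dim Nfkbiz, with -1.85 and -0.78. Rel was not well above background on either array.

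The promoters of 4 of the lower genes are shown because they hold the NF-kB consensus motif, with each match in capitals on either strand and overlapping matches run together. Each runs from 250 bases before to 50 bases after an annotated start, from RefSeq on GRCm38.p6, written 5′ to 3′ on the gene's strand.
Nfkbia promoter (chr12:55492598-55492897, minus strand): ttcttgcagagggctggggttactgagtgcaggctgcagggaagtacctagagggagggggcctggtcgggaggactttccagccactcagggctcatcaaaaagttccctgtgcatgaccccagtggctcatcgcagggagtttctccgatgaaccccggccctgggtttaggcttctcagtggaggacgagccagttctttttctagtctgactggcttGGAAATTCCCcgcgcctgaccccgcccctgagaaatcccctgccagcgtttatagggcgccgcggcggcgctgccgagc
Nfkb2 promoter (chr19:46305445-46305744, plus strand): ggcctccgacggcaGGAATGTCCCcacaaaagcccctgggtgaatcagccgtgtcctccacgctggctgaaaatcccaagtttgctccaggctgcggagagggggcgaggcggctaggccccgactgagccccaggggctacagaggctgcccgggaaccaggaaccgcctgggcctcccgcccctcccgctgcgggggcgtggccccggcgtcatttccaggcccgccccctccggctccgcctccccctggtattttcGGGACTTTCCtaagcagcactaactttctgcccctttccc
Tnip1 promoter (chr11:54962891-54963190, minus strand): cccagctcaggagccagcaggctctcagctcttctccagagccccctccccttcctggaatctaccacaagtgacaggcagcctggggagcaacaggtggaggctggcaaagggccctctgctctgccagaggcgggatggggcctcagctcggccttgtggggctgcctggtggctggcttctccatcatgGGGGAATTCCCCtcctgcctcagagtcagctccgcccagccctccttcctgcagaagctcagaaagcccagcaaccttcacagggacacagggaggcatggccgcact
Spib promoter (chr7:44532022-44532321, minus strand): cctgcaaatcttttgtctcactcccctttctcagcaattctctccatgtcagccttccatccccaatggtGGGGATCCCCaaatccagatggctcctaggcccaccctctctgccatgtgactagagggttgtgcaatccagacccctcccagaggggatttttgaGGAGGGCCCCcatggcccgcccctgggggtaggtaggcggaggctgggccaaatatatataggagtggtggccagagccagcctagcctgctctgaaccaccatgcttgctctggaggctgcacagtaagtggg
In Nfkbia the motif began at base -29 from the start, and in Tnip1 overlapping matches began at -58, -57 and -56. In this Nfkb2 promoter, which belongs to 1 of several annotated starts, matches began at -236 and 10, and in Spib at -180 and -84. Searched on both strands, 300-base promoters of 9.55% of the 27025 genes in the table held the motif, and of 12.4% of the 9461 with a promoter among genes above background on both arrays. A gene with several annotated starts counted if any of its promoters had a match. Genes at least 2-fold lower had it in 92 of 557 (16.5%), and those at least 2-fold higher in 52 of 468 (11.1%). In the subunit and inhibitor list it was in 5 of 7, and among 20 feedback and survival targets in 10. The medullary list had it in 4 of 16, the cortical list in 4 of 13, the intestinal list in 4 of 18 and the acute-phase list in 1 of 7. Aire, Saa3 and all 16 kallikrein genes measured had no match in this window. The sets also differed in base composition, read for each gene from its promoter with the most CpG dinucleotides. The median number of CpG dinucleotides was 8 for lower genes, 12 for higher genes and 22 for genes within 2-fold. A match is a run of letters only, and binding was not measured here.

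The kinases and adaptors that activate NF-kB were mostly near their control level. Of 20 measured, 1 was counted as lower and none as higher, and the list median was -0.03. Ikbkb and Chuk, the catalytic subunits of IkB kinase, differed by 0.08 and -0.15, and Ikbkg, the regulatory subunit, by -0.16. Map3k14, which encodes NIK, had a level of 2.25 in the control and 2.74 in the double knockout. The lower gene was Traf1, an adaptor and also a target of NF-kB, with 1.91 and 0.47. Traf6, the adaptor of RANK, had -0.87 and -1.67.

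The receptors upstream went both ways. Of 12 receptors of the TNF family measured on both arrays, 5 were counted as lower and 1 as higher, and the list median was -0.06 that turned to 0.08 with normexp background correction. Tnfrsf11a, which encodes RANK, had a level of 3.83 in the control and 2.25 in the double knockout. Cd40 had 3.10 and 1.71, and Fas, the death receptor gene, 1.54 and -0.02. Tnfrsf11b, the gene of the decoy receptor osteoprotegerin, had 2.21 and -0.05, the largest difference of the list, and Tnfrsf4, the OX40 gene, had 1.68 and 0.35. Ltbr, the lymphotoxin beta receptor gene, and Tnfrsf1a, the TNF receptor gene, lay on the other side, with 2.16 and 2.77, and 2.19 and 2.78. Tnfrsf12a, the receptor gene for TWEAK, was the higher one, with 0.23 and 1.27. Among ligands, Tnfsf9 was lower (-0.53 and -2.21), and Lta and Ltb differed by -0.53 and -0.52.

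Feedback inhibitors and survival genes that NF-kB is known to induce were lower in part. Of 23 measured, 9 were counted as lower and 1 as higher, and the list median was -0.61. This list also holds Nfkbia, Nfkb2, Relb and Traf1. Ptgs2, the inducible cyclooxygenase gene, had a level of 0.37 in the control and -2.12 in the double knockout. Bcl2a1d, an anti-apoptotic BCL2 relative with near-identical copies that its probe may share, had 5.05 and 3.09, and Gadd45b, a stress-response gene, 2.79 and 0.83. Tnip1, a partner of the inhibitor A20, had 5.49 and 4.17, and Cflar, which encodes the caspase-8 inhibitor FLIP, 1.48 and 0.42. Bcl2l1, the BCL-XL gene, had 3.35 and 2.36, and Tnfaip3, the A20 gene, 1.88 and 1.50. Sod2, Vcam1, Irf1, Tap1 and Cyld, also described as targets, lay between -0.34 and 0.23. Plau, the urokinase gene, was the higher one, with -1.54 and -0.49.

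**Figure D3:**
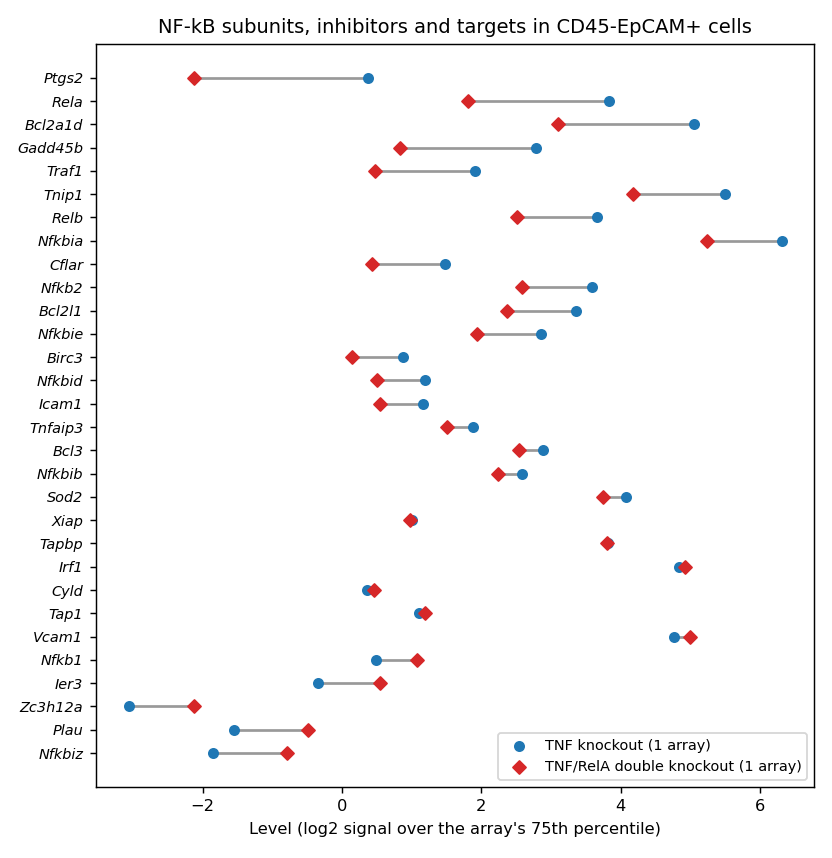
Levels of NF-kB subunit, inhibitor and target genes above background on both arrays (1 gene a line, ordered by difference) on the control array (circles) and the double-knockout array (diamonds), as log2 signal relative to the array's 75th percentile. Ptgs2 and Rela have the largest differences, -2.49 and -2.02, and Nfkbiz and Plau lie on the other side, at 1.07 and 1.05.

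Acute-phase and inflammatory genes, classical targets of RelA, were lower in most cases. Of 14 measured on both arrays, 10 were counted as lower and none as higher, and the list median was -1.61. The serum amyloid genes led: Saa3 had a level of 3.58 in the control and -0.35 in the double knockout, 15.3-fold lower, and had the largest negative difference of the genes measured on both arrays. Saa2 had 2.38 and -1.20, and Saa1 3.11 and 0.33. C3 and Cfb, complement genes, had 3.92 and 1.98, and 1.1 and -0.78. Nos2, the inducible nitric oxide synthase gene, had 2.40 and 0.54, and Ccl5, a T cell and monocyte chemokine gene, 4.74 and 2.77. Cxcl1, a neutrophil chemokine gene above background on the control array only, was at least 3.71-fold lower, and the cytokine gene Csf2 at least 3.32-fold. Lcn2, also an acute-phase gene, had 0.45 and 0.12, and Csf1 0.95 and 1.03.

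Regulators and markers of medullary epithelium were lower in most cases. Of 20 measured on both arrays, 14 were counted as lower and none as higher, and the list median was -1.46. Aire differed by -1.90 and Fezf2 (2.75 and 0.86) by -1.88. Fgf21, which encodes a secreted growth factor, had a level of 3.34 in the control and 1.17 in the double knockout. Spib, the gene of an ETS-family factor, had 3.68 and 2.02. Cd86, a costimulatory ligand gene, had 0.00 and -1.47, and Cd80, its relative, -0.70 and -1.44. Ccl19 and Ccl17, chemokine genes of the medulla, had 3.53 and 1.74, and 2.01 and 0.55. Skint1, above background on the control array only, was at least 3.51-fold lower. Against these, Krt5 differed by -0.01, Krt14 (3.30 and 2.51) by -0.79, and Chd4, a chromatin remodeller gene, by 0.19.

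Genes of the later and specialised medullary subsets were lower in part. Of 10 genes of the microfold-like subset, 6 were counted as lower and the median was -1.32, among them Gp2, the gene of a bacterial uptake receptor, with 1.95 in the control and 0.30 in the double knockout. Serpinb1a, a protease inhibitor gene of that list, had 5.13 and 3.31, and Clu, the clusterin gene, 6.17 and 4.62. Of 14 genes of cornified, late medullary cells, 9 were counted as lower and the median was -1.31. Spink5, a protease inhibitor gene of skin, had 0.29 and -1.77, and Dsg1a, a desmoglein gene, 0.68 and -1.20. Lor, the loricrin gene, lay at 1.12 and 1.26, and Ly6d at 5.33 and 4.86. Of 7 tuft cell genes 2 were at least 2-fold lower: Gng13, a taste-signalling subunit gene (2.23 and 0.60), and Alox5, a lipoxygenase gene (0.17 and -1.05). A further 10 tuft genes, Trpm5, Gnat3 and Il25 among them, were above background on the control array only.

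Keratins and claudins differed within each family. Among 13 keratins 5 were at least 2-fold lower and none higher, 11 had a difference below 0, and the list median was -0.79. Of 6 more, seen on the control array only, 3 were at least 2-fold lower as bounds. Krt20, a keratin of gut epithelium, had a level of 2.58 in the control and 0.43 in the double knockout, and Krt79, Krt15, Krt10 and Krt23 differed by -1.67, -1.48, -1.44 and -1.39. Other keratins stayed within 2-fold, among them Krt5, Krt7, Krt8, Krt17 and Krt18, at -0.01, -0.02, 0.06, -0.56 and 0.64. Krt8 and Krt18 were the only 2 of the 13 above 0. Among 16 claudin and junction genes 5 were at least 2-fold lower and 1 higher, the plakophilin gene Pkp3 (2.62 and 3.65). Cldn7 had 3.24 and 1.34, and Cldn13, Cldn3 and Cldn4 differed by -1.96, -1.50 and -1.37, while Cdh1, Dsp and Pkp1 of cell junctions differed by 0.19, 0.42 and -0.23.

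Genes of other tissues, expressed promiscuously by medullary cells, were lower in nearly every intestinal, defensin and kallikrein gene measured. Of 24 intestinal genes measured on both arrays 21 were counted as lower and 1 as higher, and the list median was -2.08, and 11 of the 15 seen on the control array only were at least 2-fold lower as bounds. Reg3g, an antibacterial lectin gene, had a level of 5.0 in the control and 2.47 in the double knockout. Fabp1, a fatty acid carrier gene, had 1.79 and -0.73, Ces2c, a carboxylesterase gene, 1.90 and -1.21, and Aoc1, the diamine oxidase gene, 2.57 and -0.48. Cdx1, a transcription factor gene of gut epithelium, had 4.83 and 3.01, while Hnf4a, another, had -1.67 and -1.62. Dpp4, which lymphocytes express as well, was the higher one, with -1.08 and 0.12. Of genes outside the lists, Lypd8, a gene of the colon surface, had 1.17 and -1.65, and Gsta2, a glutathione transferase gene, 2.35 and -0.44. Summed over the 40 genes of the list, the signal relative to the 75th percentile was 132 in the control and 31.7 in the double knockout.

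The Paneth cell defensins and the kallikreins were as uniform, though members of both families are so alike that their probes may share signal. All 3 alpha-defensins of the list measured on both arrays were lower, by -2.55 to -3.77. Of 5 others in the list 4 were at least 2-fold lower as bounds, Defa38 at least 20.7-fold. A run of 4 neighbouring alpha-defensins (Defa23, Defa3, Defa29 and Defa32), not all of them in the list, differed by -2.17 to -3.77. Of 16 kallikrein genes 15 were counted as lower, and the list median was -2.23. Klk1b26 had a level of 2.03 in the control and -0.70 in the double knockout, and Klk4, a protease gene of tooth enamel, 2.12 and -0.44. Only Klk8 lay within 2-fold, with -0.42 and -0.73. The 15 lower kallikreins stand next to each other among the measured genes of chromosome 7, from Klk6 to Klk1, in the order of the RefSeq gene table, and differed by -1.06 to -3.17. Such neighbourhood was more common among lower genes in general: 30.1% of the 751 lower genes (226) had a lower gene as their next measured neighbour, against 11.9% of all measured genes, and for higher genes the shares were 17.0% and 10.1%. The next longest run held 6 S100 genes of chromosome 3 (S100a14, S100a16, S100a3, S100a2, S100a4 and S100a5), which differed by -1.04 to -1.75.

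Hormone genes were lower in most cases, and other tissue groups less uniformly. Of 14 peptide hormone and neuropeptide genes 11 were counted as lower and 1 as higher, and the list median was -1.72. Oxt, the oxytocin gene, had a level of 0.77 in the control and -2.23 in the double knockout, Nts, the neurotensin gene, 1.31 and -1.28, and Iapp, the amylin gene, 1.24 and -1.30. Ins2 had -0.05 and -1.64, and Ins1, seen on the control array only, was lower by at least 5.6-fold. Ghrl, the ghrelin gene, was the higher one, with -0.50 and 0.52, and Penk, the enkephalin gene, had 2.90 and 3.77. Of 6 liver genes 3 were lower, with Fgg, a fibrinogen gene, at 0.76 and -2.05, and 1 higher, Serpina3n, at -3.33 and -0.41. Of 11 salivary and other secretory genes 5 were lower, with Lyz1, a lysozyme gene, at 3.38 and 1.03, while Pigr, the polymeric immunoglobulin receptor gene, differed by -0.05 and Bpifa1 by 0.06. Of 13 muscle and neural genes 3 were lower and none higher, with a median of -0.09 that turned to 0.13 with normexp.

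Genes of cortical epithelium lay on the other side of 0. Of 17 measured, 16 had a difference above 0, 2 of them from 2-fold on, 1 gene was counted as lower, and the list median was 0.60. With quantile normalization the median was 0.26 and with normexp 0.17. Ctsl, the cathepsin L gene that cortical cells use to process antigen, had a level of 8.36 in the control and 9.28 in the double knockout, Ccl25, the chemokine gene that attracts progenitors, 8.14 and 8.84, and Prss16, a thymus-specific protease gene, 7.85 and 8.53. Psmb11, the thymoproteasome subunit gene, had 2.25 and 2.48, and Dll4, the Notch ligand gene that T cell fate requires, 0.71 and 0.94. Tgfbr3 (0.48 and 1.84) and Ly75 (-1.33 and -0.22), which encodes the antigen uptake receptor DEC-205, were the 2 at least 2-fold higher, and Igfbp5 (1.89 and 0.82) was the lower one. Thymocyte genes lay on the same side: 22 of 24 were above 0 6 of them counted as higher, and the list median was 0.86. Cd3e had 3.89 and 4.87, Lat 1.68 and 3.11, and Dntt 4.36 and 5.47. Their part in the cortical result was not tested.

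Of 16 transcription factor genes of thymic epithelium measured on both arrays 3 were lower and none higher, against 6.34% and 5.27% of all genes. Of 2 more, seen on the control array only, 1 was at least 2-fold lower as a bound. Pax1, Pax9, Eya1, Hoxa3 and Trp63, factors of thymus and epithelial formation, differed by 0.23, 0.56, 0.76, 0.48 and 0.40. The 3 of 16 that were at least 2-fold lower were Elf3 (-1.06 and -2.68), Grhl3 (0.34 and -1.15) and Ehf (0.77 and -0.40), factors of differentiated epithelium. The median of the list was 0.10 and turned to -0.21 with normexp. Among 18 epithelial growth factor and Notch ligand genes, 1 was at least 2-fold lower, Bmp2 (0.74 and -0.91), and 2 were higher, Lifr (2.88 and 4.09) and Dll1 (-1.79 and -0.78). Il7 and Kitl, which feed early thymocytes, differed by 0.40 and 0.42. Among 10 thymic chemokine genes 5 were lower, and beside Ccl19 and Ccl17 these were Ccl27a (3.15 and 1.46, with probes that ranged from -1.69 to 0.13), Cxcl9 (1.04 and -0.37) and Cxcl10 (4.95 and 3.72). Cxcl12, like Ccl25 a chemokine gene of the cortex, had 5.44 and 6.04.

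Antigen presentation genes of class II held some 2-fold differences, and the class I and proteasome genes held none. Of 12 class II genes 2 were lower and 1 higher, with a median of -0.26: Ctss, the cathepsin S gene, had a level of 3.03 in the control and 1.75 in the double knockout, Ifi30 had 4.36 and 3.36, and Ciita, the gene of the class II transactivator, -2.44 and -0.82. H2-Ab1, a class II beta chain gene, and Cd74, the invariant chain gene, differed by 0.17 and -0.27. None of 21 class I and proteasome genes was 2-fold apart, with a median of -0.23 and -0.69 with normexp. B2m had 7.12 and 6.54, and Psme2, a proteasome activator gene, 5.98 and 5.24.

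Several lists that served as comparison held no 2-fold difference among genes measured on both arrays, and others held some. None of 20 interferon-stimulated genes was 2-fold apart, with a median of 0.15 that turned to -0.27 with normexp. In that list 1 more gene, seen on the control array only, was at least 2-fold lower as a bound. None of 20 replication and mitosis genes was 2-fold apart, with a median of 0.26. The replicative helicase genes Mcm2, Mcm6 and Mcm7 differed by 0.85, 0.77 and 0.72, and Mki67 by 0.18. None of 21 heat shock and stress genes was 2-fold apart. Of 19 reference genes 1 was, Gusb (2.09 and 0.89), and their median was 0.04, turning to -0.04 with quantile normalization, -0.05 with cyclic loess and -0.40 with normexp. Of 20 apoptosis genes 3 were lower: Pmaip1, the NOXA gene (2.23 and 0.47), Fas and Cflar. Bcl2 had 0.88 and 1.71, and Bax 2.77 and 2.45.

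**Figure D4:**
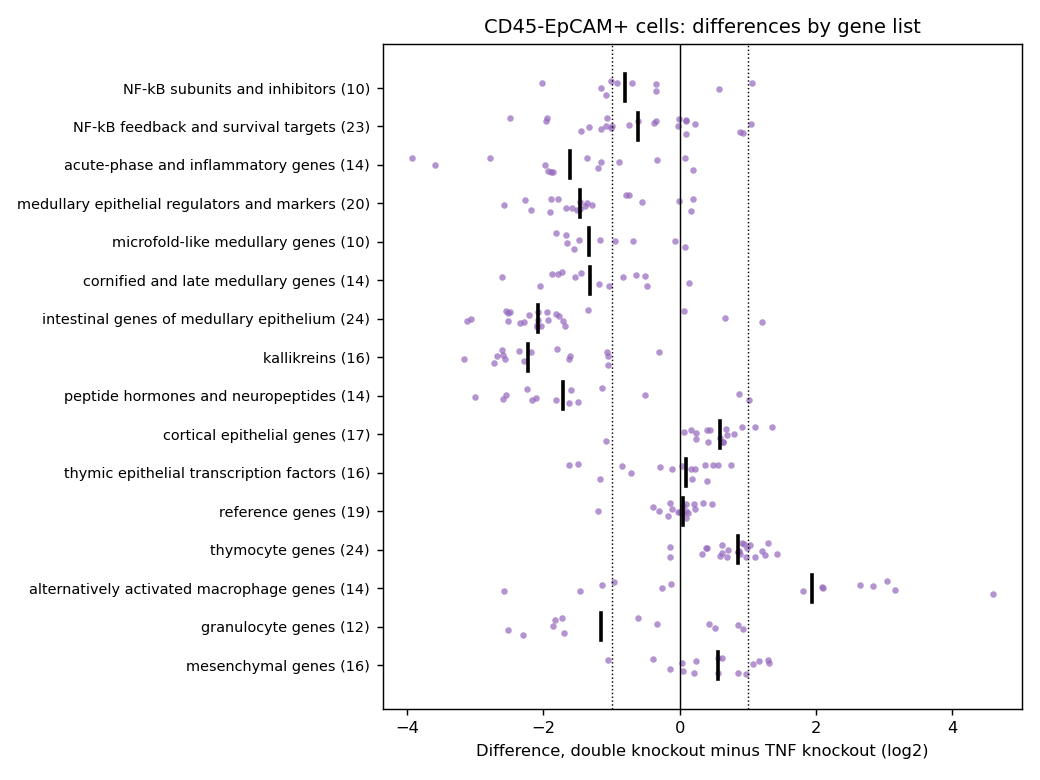
Difference between double knockout and control (x axis, log2) of every gene above background on both arrays in 16 of the gene lists (y axis, number of genes in brackets), with the list median as a bar and dotted lines at 2-fold. The medians of intestinal genes and kallikreins are -2.08 and -2.23, that of reference genes is 0.04, and alternatively activated macrophage genes spread from -2.57 to 4.60.

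None of the 15 largest higher genes, among those with a level of at least 0 on the brighter array, is in an epithelial list. Cd209f, a lectin receptor gene of the DC-SIGN family, had a level of -3.30 in the control and 1.30 in the double knockout, 24.3-fold higher. Pth, the parathyroid hormone gene, had -0.46 and 3.28, 13.4-fold higher, and Chga, the chromogranin A gene, which parathyroid and other endocrine cells express, 1.31 and 3.56. Of other parathyroid markers, Casr, the calcium-sensing receptor gene, had -1.53 and -1.84, and Gcm2, the lineage factor gene, was above background on the control array only, so that no fold is given. Of 14 neuroendocrine and parathyroid genes measured on both arrays 4 were lower and 3 higher, and the list median was 0.28. Insm1 (4.24 and 2.25), Syt1 (2.98 and 0.97) and Scg5 (0.87 and -1.1) were among the lower ones. Nanog, a pluripotency gene, had -0.65 and 2.26, while Pou5f1 was above background on the control array only and Sox2 on neither. Angptl4, a lipase inhibitor gene, had 0.53 and 2.46, and Tgm3, a transglutaminase gene, -0.65 and 1.29. Each of these higher genes rests on 1 probe. Thoc2 was also among the 15 largest, but its probes ranged from 0.07 to 2.42.

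Genes of alternatively activated macrophages went both ways, with more higher than lower. Of 14 of the former measured on both arrays, 8 were counted as higher and 3 as lower, and the list median was 1.94, or 1.29 with normexp and 1.30 with cyclic loess. The summed signal of this list was 116 in the control and 120 in the double knockout. Retnla, which encodes the secreted protein RELM-alpha, had a level of 0.82 in the control and 3.98 in the double knockout, Chil3, a chitinase-like gene, 0.02 and 2.85, and Arg1, the arginase gene, -1.75 and 0.89. Ear2, a ribonuclease gene, was lower instead, with 1.60 and -0.97, and Mgl2, a lectin gene, lay at 6.69 and 6.43. Of 16 general macrophage genes 2 were higher and 2 lower, with a median of 0.28. C1qc had -0.50 and 0.85, Csf1r 1.42 and 1.84, and Lyz2 -0.08 and -1.51, and Cd163 and Timd4 were above background on neither array. The summed signal of the macrophage list was 30.3 in the control and 37.8 in the double knockout.

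Other blood and stromal cell genes went both ways. Of 12 granulocyte genes 6 were lower and none 2-fold higher, with a median of -1.15 (-0.40 with normexp): S100a8 had a level of 3.35 and 1.53, S100a9 4.0 and 2.13, and Mpo, the myeloperoxidase gene, 1.95 and -0.58. Csf3r of the same list lay at 5.35 and 6.20, and the summed signal of the list was 79.7 and 88.0. Of 10 erythroid genes 2 were lower and 4 higher, with a median of 0.97, or 0.56 with normexp. The adult globin genes Hba-a1 (2.60 and 3.68) and Hbb-bs (-2.0 and -0.81) were among the higher ones. The embryonic globin gene Hbb-y had 0.89 and -2.44, and the erythroid gene Alas2 -0.73 and -1.38. Among mesenchymal genes 4 of 16 were higher, Dcn (1.85 and 3.16), Col6a1 (2.55 and 3.85), Tagln (2.63 and 3.79) and Fn1 (4.12 and 5.19), and 1 was lower, Vim (3.37 and 2.32), while Pdgfra was above background on neither array. Of 9 dendritic cell genes 3 were lower, Irf4 (1.17 and -0.85), Ccr7 (2.38 and 0.71) and Fscn1 (2.0 and 0.39). Siglech, a gene of plasmacytoid dendritic cells, had 5.35 and 6.11, and Xcr1 and Clec9a of conventional ones were above background on neither array. Of 6 B cell genes 2 were lower, Blnk (4.61 and 2.79) and Jchain (1.72 and -0.26), and 1 was higher. Their list median was -0.06, or 0.04 with normexp, and Cd79a and Ms4a1 were seen on the control array only and without a fold. The summed signals were 41.0 and 75.9 for the erythroid list, 111 and 189 for the mesenchymal list and 94.6 and 114 for the dendritic cell list. The part of these cells in the epithelial results was not tested.

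Adding the genes seen on 1 array only tilted the counts towards lower genes. On the control array 3872 genes were above background alone, on the double-knockout array 49. A difference is then a bound, set against the higher of the dim gene's own value and the lowest level among probes above background on that array, which was -2.82 on the double-knockout array and -4.78 on the control. No fold could be given for 2573 of these genes. With the bounds, 1223 of 13191 genes (9.27%) were at least 2-fold lower and 673 (5.1%) at least 2-fold higher. By bound Gm5771, a trypsinogen-like gene model, was at least 12.6-fold lower, the carboxylesterase gene Ces2b at least 11.2-fold and the transthyretin gene Ttr at least 6.87-fold. In the other direction the olfactory receptor gene Olfr1265 was at least 23.7-fold higher and Pdia2, a protein disulfide isomerase gene of pancreas, at least 18.9-fold, with levels of -0.21 and -0.34 in the double knockout.

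More genes were 2-fold apart in the epithelial sort than in the other populations, whose arrays were more alike in brightness; this was counted and not tested. Among genes above background on both arrays of a pair, 1.52% of 13622 were at least 2-fold lower and 1.28% higher in CD45+EpCAM- cells, and 0.797% of 12167 were lower and 1.03% higher in CD4+CD25hi thymocytes. The 75th percentile differed by 0.09 and -0.23 in those pairs, on the log2 scale, against -1.78 in CD45-EpCAM+ cells. Some epithelial differences were also seen in CD45+EpCAM- cells. Over the 12 kallikreins measured in both fractions the median was -2.23 in CD45-EpCAM+ cells and -2.16 in CD45+EpCAM- cells. Spib differed by -1.82 there, Nfkb2 by -1.1 and Relb by -0.96, against -0.66, -0.29 and -0.25 in CD4+CD25hi thymocytes. Retnla and Chil3 were higher in CD45+EpCAM- cells as well, by 2.26 and 2.89, while Cd209f differed by -0.73. Other groups differed: over 10 granulocyte genes the median was -1.71 in CD45-EpCAM+ cells and 1.54 in CD45+EpCAM- cells, and over 12 class II genes -0.26 and -0.89.

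**Figure D5:**
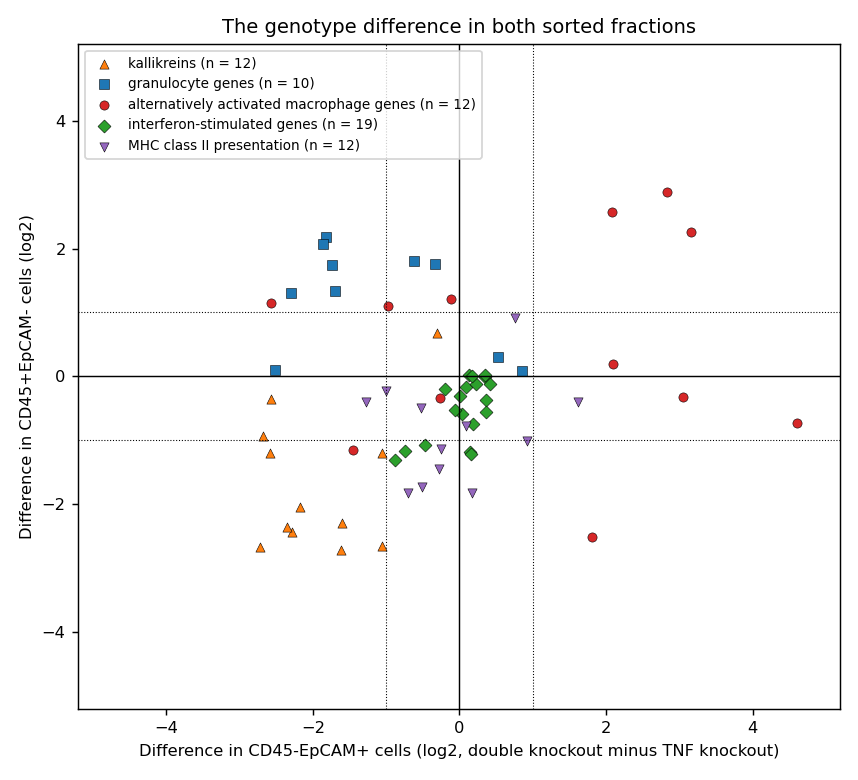
Difference between double knockout and control in CD45-EpCAM+ cells (x axis, log2) and in CD45+EpCAM- cells (y axis, log2) for genes of 5 lists above background on all 4 arrays, with dotted lines at 2-fold. The kallikreins lie in the lower left with medians of -2.23 and -2.16, and the granulocyte genes mostly in the upper left with medians of -1.71 and 1.54.

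The difference in CD45-EpCAM+ cells was tested against the mean difference of the other 2 populations with limma, over the 13740 genes that were above background on 3 or more of the 6 arrays. With 1 array per group this interaction has 1 residual degree of freedom, and its p-values measure how far the genotype effect varies between the other 2 populations and not the spread between pools. Both arrays of a population lay on the same slide and each population on a slide of its own, and effects of the slide cannot be told apart from those of the population. At a Benjamini-Hochberg adjusted p of 0.05 no gene passed (0 of 13740), the smallest adjusted p was 0.166, and 2803 genes had an unadjusted p under 0.05. Quantile normalization, the mean over probes, a trended prior and genes above background on all 6 arrays also gave 0. Centring on the median of detected probes gave 3489 genes and normexp 3223, with the lower to higher split at 3448 to 41 and 753 to 2470. No gene named here is therefore called different between the populations.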

How the data were processed

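The 6 arrays, 1 for each of 3 thymic populations and 2 genotypes, were one-colour Agilent mouse arrays of design 026655, and the number of arrays limits the precision. A low-input kit amplified RNA of the pooled cells and labelled it with Cy3, as the labels state. Each deposited scanner file gives an intensity per spot, extracted by the authors with Feature Extraction 10.5.1.1 per the file headers (9.5 per the submitters' processing notes), which also subtracted the background from the processed signal. The deposited value table is on a log2 scale and equalled the log2 processed signal minus the array's 75th percentile, with 100% of probes within 0.05 of it.

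The value of a probe was log2 of its processed signal, averaged over its spots without those marked as outliers, minus the 75th percentile of all probes on that array. Probes were named through transcript accessions in a RefSeq gene table of GRCm38.p6: of 39419 probes used, 27472 (69.7%) had a single symbol, 35 several and 11912 none. A gene was read by its brightest probe over the 6 arrays. A gene is lower or higher here where it is at least 2-fold apart. With 1 array per genotype this is a count and not a test. For the interaction, limma 3.58.1 was run in R 4.3.3 with Benjamini-Hochberg adjustment. The counting code was run on shifts put into equal levels without noise, and the fit on drawn noise of equal spread in every gene. These runs check the code only and do not give an error rate for these data.

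The 42 gene lists (826 genes, 787 on the array) and the members were chosen with earlier results of these data known, and some genes stand in several lists. Genes named are Rela and Tnf, the 15 largest differences per direction, the 5 brightest seen on 1 array per direction, core members of each list and up to 6 of its largest differences. Other genes named were chosen after their values were seen. Some genes under this rule are not reported here. The germ cell, monocyte chemokine, endothelial and TNF ligand lists are given with the observations. The alternatives were quantile normalization, centring on the median of detected probes, cyclic loess, normexp with an offset of 50 on median signals, the mean over probes, other filters and, added after the data were seen, scaling to spike-ins.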

Additional observations from a re-analysis of the deposited data

Results flagged for a closer look

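Only the 399 genes picked by the naming rule above were searched for opposite directions, and not all measured genes. Of them, 10 differed at least 2-fold between genotypes in CD45-EpCAM+ cells and in another population, in opposite directions. With 1 array a group, the difference between that pair of populations was not tested. In the limma fit of CD45-EpCAM+ cells against the mean of the other 2 populations, these genes had Benjamini-Hochberg adjusted p-values of 0.166 to 0.388. Lower in CD45-EpCAM+ and higher in CD45+EpCAM- cells were the calprotectin genes S100a8 (-1.82 and 2.19) and S100a9 (-1.86 and 2.07), the cathelicidin gene Camp (-2.29 and 1.30), the lactoferrin gene Ltf (-1.69 and 1.33), the stefin gene Stfa3 (-1.73 and 1.74), the ribonuclease gene Ear2 (-2.57 and 1.15) and the chemokine gene Ccl9 (-1.48 and 1.81). Lifr, a cytokine receptor gene, was 1.21 in CD45-EpCAM+ and -1.24 in CD45+EpCAM- cells. Against CD4+CD25hi thymocytes, Dntt, which encodes the terminal transferase of immature thymocytes, was 1.1 and -1.0, and the peptidase gene Cpe -1.11 and 1.12, with Cpe probes that ranged from -1.20 to 0.92 in CD45-EpCAM+ cells.

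Probes without a single gene symbol stand outside the gene counts. Of 3590 above background on both arrays of CD45-EpCAM+ cells, 515 were at least 2-fold higher in the double knockout (14.4%) and 90 lower (2.51%), against 5.27% and 6.34% of named genes. The former are shares of probes and the latter of genes read by their brightest probe, and the sets were not matched for brightness.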

How the results depend on the processing

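The counts of 751 lower and 624 higher genes depended on scaling and filter. Centring on the median of detected probes moved every gene by -1.12 and gave 6310 lower and 45 higher. Spike-in scaling, an alternative chosen after seeing the data, moved every gene by -1.97 and gave 11171 and 13. Values of single genes and lists were compared relative to these shifts. Cyclic loess, which moved the median of all genes by -0.12, gave 286 higher genes. Counting bounds gave 1223 lower, dropping the filter on dim genes 2004 lower and 4496 higher, and the brighter genes alone 288 and 152. The share of calls that were lower was 54.6%, against 50.5% with quantile normalization, 99.3% with median centring, 75.9% with cyclic loess and 99.9% with spike-ins. Of the 1375 called genes, 1374 kept their sign with quantile normalization, 1375 with loess and 1357 with the mean over probes. With median centring, its shift left in, 1222 kept their sign, and 45 of the 624 higher genes stayed 2-fold higher. Normexp kept the sign of 1364, and 436 lower and 371 higher genes stayed 2-fold apart.

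The interaction gave 3489 genes with median centring and 3223 with normexp in place of 0. The germ cell median turned to 2.92 in the brighter genes, where Nanog was left, and Mag turned from -1.0 to 0.0898 with normexp. The cause was not tested. No paired analysis was possible because the labels number no replicates and each genotype has 1 array of these cells. Brightness also limits the comparison: 3872 genes were above background on the control array only.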

Other observations

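The germ cell and pluripotency list went both ways, with more genes lower than higher. Of 6 genes above background on both arrays 4 were counted as lower and 2 as higher (Nanog and Tex101), and the list median was -1.50. Fabp9, a testis fatty acid carrier gene, had a level of 1.06 in the control and -1.60 in the double knockout, and Prm1, a protamine gene, -0.57 and -2.21. Tex101, a germ cell surface gene, had -3.64 and -2.48. A further 10 genes of the list were above background on the control array only.

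Monocyte and macrophage chemokine genes went both ways, with 2 of 12 lower, 3 higher and a median of 0.20, or -0.70 among the brighter genes. Their summed signal was 48.7 in the control and 24.0 in the double knockout. Ccl4 had a level of -3.16 in the control and -0.10 in the double knockout, Ccl24 -3.05 and -0.96, and Ccl7 -0.94 and 0.13. Ccl9, which follicle-associated epithelium also expresses, had 3.25 and 1.78. In CD45+EpCAM- cells Ccl7 was higher by 3.18 and Ccl2 by 2.63, while Ccl2 differed by -0.89 in CD45-EpCAM+ cells. Among 5 endothelial genes 2 were lower, Vwf (-0.16 and -1.78) and Plvap (-0.88 and -2.17), and Kdr had 2.58 and 3.17. The 5 TNF family ligand genes had a list median at -0.53, or 0.09 with normexp.

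Short runs of neighbouring genes on the same side were also seen outside the kallikreins. Ear1, Ear10 and Ear2 with Sftpd, on chromosome 14, differed by -1.70 to -2.57. Pvalb, Ncf4, Csf2rb2 and Csf2rb, on chromosome 15, differed by -1.63 to -2.57. The F-box genes Fbxw20, Fbxw18 and Fbxw27 with Spink8, on chromosome 9, were higher by 1.18 to 2.07. Members of the Ear and Fbxw families resemble each other, so that their probes may share signal.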
